A study of Mus musculus with 30 samples.

Results

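The CC chemokines Ccl2, Ccl3, Ccl4, Ccl6, Ccl7, Ccl8, Ccl9, Ccl11 and Ccl24, together with the receptor gene Ccr2, were followed by gene symbol through all libraries of the series, 10 genes in all, among 24601 genes listed for total RNA of the muscularis externa (ME) and 26179 genes listed for the RiboTag fraction. The ME is the muscle layer of the small bowel with its nerves, enteric glia and resident macrophages. Mice were either naïve or had undergone intestinal manipulation 3 h (IM3h), 24 h (IM24h) or 72 h (IM72h) earlier, a surgical model of post-operative ileus in which the bowel is rolled with moist cotton swabs. Both fractions were sequenced as 3′ end libraries. The RiboTag fraction is mRNA precipitated with HA-tagged RPL22 ribosomes of Sox10-expressing cells, and total ME RNA is the RNA of the whole layer.

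All mice carried the conditional HA-tagged Rpl22 allele (B6N.129 Rpl22tm1.1Psam/J) and were males of 10 to 12 weeks according to the methods of the study. Every RiboTag group, and total ME RNA at IM24h and IM72h, came from crosses with the tamoxifen-inducible line B6 Tg(Sox10-icre/ERT2)388Wdr/J, induced on 3 consecutive days. Total ME RNA of naïve mice and of IM3h is labelled with the Gfap-cre line B6.Cg-Tg73.12Mvs/J instead. In total ME RNA the comparison of IM3h with naïve mice was therefore made within one line, whereas line and time cannot be told apart at IM24h and IM72h, and line and fraction cannot be told apart in naïve mice and at IM3h. The tables held 3 naïve, 4 IM3h, 4 IM24h and 4 IM72h RiboTag libraries and 3, 3, 4 and 4 libraries of total ME RNA in the same order. The labels name 4 naïve RiboTag samples, so that 1 of them, which the library names do not tell, was not analysed here and is not in the naïve group of any RiboTag comparison. The methods give separate animals per time point, but no label ties a library to an animal, so that p-values measure the spread between these libraries.

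CC chemokines are small secreted proteins that bind G protein-coupled receptors on leukocytes and direct their migration along a gradient. CCL2 and CCL7 are ligands of CCR2, the receptor by which inflammatory monocytes leave the bone marrow and enter inflamed tissue, and CCL8 of the mouse signals mainly through CCR8. CCL3, CCL4, CCL6 and CCL9 act on receptors such as CCR1, and CCL11 and CCL24 are eotaxins that attract eosinophils through CCR3. In the bowel wall, monocytes recruited in this way differentiate into macrophages.

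In the GENCODE annotation of mm10, 8 of the ligand genes lie in 2 clusters on chromosome 11. The first spans 81.2 kb, from 82035571 to 82116799, and holds Ccl2, Ccl7, Ccl11 and Ccl8 on the plus strand. The second spans 91.8 kb, from 83572919 to 83664683, with Ccl9, Ccl6 and Ccl3 on the minus strand and Ccl4 on the plus strand. Ccl24 lies on chromosome 5 at 135569937 to 135573049 on the minus strand, and Ccr2 on chromosome 9 at 124101950 to 124113557 on the plus strand. Each is a protein-coding gene. Ccl2 overlaps Gm17268 and Ccl6 overlaps E230016K23Rik on the opposite strand, and the sources do not say whether counting used strand. E230016K23Rik reached at most 0.823 CPM in any library, and Gm17268 is not listed in the tables.

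RefSeq promoter windows of GRCm38.p6, 250 bases before to 50 bases after the start, were found for 5 of the 10 genes, Ccl3, Ccl6, Ccl8, Ccl9 and Ccr2. Windows of the neighbouring genes Ccl6 and Ccl9 are shown because they resembled each other more than those of any other pair. In the best ungapped match of 60 bases, 41 bases were identical between Ccl6 and Ccl9, against 28 to 32 in the other 9 pairs. Capitals mark the longest run they share, of 13 bases. The window of Ccl8, whose course differed from that of the other ligands, is shown with the letters TATAAA in capitals.
Ccl6 (chr11:83593038-83593337, minus strand): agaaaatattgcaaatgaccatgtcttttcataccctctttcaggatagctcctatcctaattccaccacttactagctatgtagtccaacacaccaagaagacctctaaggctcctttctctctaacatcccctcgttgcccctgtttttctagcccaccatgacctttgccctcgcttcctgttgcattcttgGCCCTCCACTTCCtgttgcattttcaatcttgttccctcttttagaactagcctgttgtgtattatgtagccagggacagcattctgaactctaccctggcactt
Ccl9 (chr11:83578587-83578886, minus strand): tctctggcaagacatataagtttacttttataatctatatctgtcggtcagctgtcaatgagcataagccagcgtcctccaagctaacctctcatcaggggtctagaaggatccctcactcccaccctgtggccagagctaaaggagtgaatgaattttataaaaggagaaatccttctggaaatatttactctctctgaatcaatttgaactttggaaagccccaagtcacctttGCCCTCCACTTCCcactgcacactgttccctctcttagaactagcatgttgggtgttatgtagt
Ccl8 (chr11:82114935-82115234, plus strand): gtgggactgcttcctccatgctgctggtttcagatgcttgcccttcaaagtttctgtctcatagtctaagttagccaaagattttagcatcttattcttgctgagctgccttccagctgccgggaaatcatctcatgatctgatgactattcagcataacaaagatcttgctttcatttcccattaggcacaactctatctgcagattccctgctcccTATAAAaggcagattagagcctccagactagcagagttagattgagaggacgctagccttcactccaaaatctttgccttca
Both strands were searched. The AP-1 motif TGANTCA occurred in the window of Ccl9 alone, where it reads TGAATCA and begins at position -53 from the start, against 7.81% of 32851 promoter windows of the same length. A match to NF-kappaB also occurred in Ccl9 alone, 1 of 5 windows against 8.46% of all, and the PU.1 motif GAGGAAGT in 0 of 5 against 3.2%. TATAAA occurred in Ccl8 and Ccl9, 2 of 5 windows against 13.6% of all, and 2 of its 3 places in Ccl9 overlap each other on opposite strands. These matches describe the letters of the windows and do not show binding.

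Library totals lay between 3010306 and 7899493 estimated counts in RiboTag libraries and between 6603170 and 12866062 in total ME RNA. One gene, AY036118, took a large part of late RiboTag libraries, which left 663808 to 1619377 counts for all other genes at IM72h. Enteric glia markers (6 genes, among them Sox10, S100b and Gfap) summed to 1705 to 2030 CPM in naïve RiboTag libraries and 104 to 127 CPM in naïve total ME RNA. In RiboTag libraries their sum ranged from 1446 to 3196 CPM at IM3h, 867 to 1056 at IM24h, below all naïve libraries, and 160 to 1587 at IM72h. Sox10 itself went from 530 to 1120 CPM in naïve libraries to 309 to 451, 42.5 to 480 and 0 to 12.9 CPM. Levels are CPM, counts relative to library size, scaled over all libraries together by the trimmed mean of M values (TMM), and a library of the 3′ end type yields about one tag per transcript, so that no length correction was made. The tables list only features with at least 10 counts over their libraries. A gene that is not listed was set to 0. Libraries are numbered within a group by the order of their names, which carries no meaning.

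In total ME RNA each of the 10 genes passed the test for a higher level than in naïve mice at 1 or more time points, Ccl11 at IM3h, Ccl8 at IM72h, Ccl24 at IM24h and IM72h, and the others at all 3. Ccl2 and Ccl7, ligands of CCR2, had the largest fitted log2 fold changes of the tested members at IM3h and IM24h. Ccl2 stood at 0.662, 0.574 and 3.92 CPM in the naïve libraries and at 294, 386 and 180 CPM at IM3h. At IM24h its level was 252, 487, 469 and 163 CPM, and at IM72h 83.8, 62.1, 35.1 and 46.8 CPM. All libraries after manipulation lay above all naïve libraries. On the log2 scale Ccl2 changed against naïve by 7.37 ± 0.51 (SE) after 3 h, by 7.55 ± 0.68 after 24 h and by 4.93 ± 0.50 after 72 h, with adjusted p = 4.72e-06, 9.85e-05 and 1.6e-05 (edgeR quasi-likelihood test, Benjamini-Hochberg). Between IM3h and IM24h Ccl2 differed by 0.25 ± 0.37 (adjusted p = 0.657), and from IM24h to IM72h it fell by 2.61 on the log2 scale (adjusted p = 0.00037).

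Ccl7, the neighbour of Ccl2 and also a monocyte attractant, stood at 0.552, 0.766 and 3.81 CPM in naïve libraries, with the highest value in the same library as for Ccl2. It reached 80.1, 55.4 and 68.9 CPM at IM3h and 62.1, 167, 118 and 41.6 CPM at IM24h, and was at 29.7, 22.1, 13 and 19.7 CPM at IM72h. Again no library after manipulation overlapped with naïve libraries. Ccl7 changed by 5.33 ± 0.44 on the log2 scale at IM3h, by 5.75 ± 0.70 at IM24h and by 3.54 ± 0.49 at IM72h (adjusted p = 1.45e-05, 0.000347 and 0.000126, edgeR).

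Ccl3 and Ccl4, which encode the macrophage inflammatory proteins 1α and 1β, stayed at low levels throughout. Ccl3 ranged from 0 to 0.442 CPM in naïve mice, 2.002 to 4.91 at IM3h, 0.593 to 5.95 at IM24h and 0.663 to 1.31 at IM72h. Ccl4 ranged from 0.224 to 0.957, 5.5 to 11.6, 2.65 to 14.9 and 2.58 to 4.27 CPM. Groups after manipulation lay above the naïve group in both genes at all 3 time points. Both were highest on average at IM3h, with log2 fold changes of 4.23 ± 0.73 for Ccl3 and 4.46 ± 0.53 for Ccl4 (adjusted p = 0.00167 and 0.000157, edgeR), and for neither did the step from IM3h to IM24h pass the test (adjusted p = 0.823 and 0.793). The call of Ccl3 at IM24h (3.96 ± 1.06, adjusted p = 0.0185) was lost without naïve library 2 or 3, at 3.53 and 3.64, in 4 fits that tested it, and that at IM72h (2.25 ± 0.67, adjusted p = 0.0137) without naïve library 3, at 1.90. Scaling by Actb, Hsp90ab1 and Rplp1 ended both calls, at 3.59 and 1.65 (adjusted p = 0.0582 and 0.0656, edgeR).

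Ccl6 and Ccl9, ligands made by myeloid cells, were higher at IM3h and rose further to IM24h. Ccl9 stood at 3.2, 3.06 and 4.26 CPM in naïve libraries, at 19, 21.2 and 19.6 CPM at IM3h, at 92, 102, 148 and 96.9 CPM at IM24h and at 96.9, 86.9, 81.8 and 69 CPM at IM72h. Each group up to IM24h lay above the one before it, and the groups of IM24h and IM72h overlapped. The log2 fold change against naïve was 2.60 ± 0.21, 4.97 ± 0.26 and 4.56 ± 0.19 (adjusted p = 1.15e-05, 1.25e-05 and 1.75e-07, edgeR), the step from IM3h to IM24h was 2.45 ± 0.20 (adjusted p = 6.55e-05), and that from IM24h to IM72h -0.42 ± 0.18 (adjusted p = 0.0901).

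Ccl6 was present in naïve mice at 21.8, 20.9 and 17 CPM and at 37.9, 27.1 and 28.2 CPM at IM3h. It then reached 174, 137, 308 and 321 CPM at IM24h and declined to 71.1, 91.9, 80.8 and 101 CPM at IM72h. No 2 neighbouring groups overlapped. The change against naïve was 0.76 ± 0.18 at IM3h (adjusted p = 0.00885), 3.59 ± 0.34 at IM24h (adjusted p = 0.000117) and 2.12 ± 0.16 at IM72h (adjusted p = 1.94e-06, edgeR). The step from IM3h to IM24h was 2.92 ± 0.33 (adjusted p = 0.000309), and from IM24h to IM72h the level fell by 1.48 on the log2 scale (adjusted p = 0.00144). The small change at IM3h was no longer called without naïve library 3 (0.59), nor when libraries were scaled by their totals (0.51), left unscaled (0.64) or scaled by Actb, Hsp90ab1 and Rplp1 (0.36).

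Ccr2, the receptor of CCL2 and CCL7 and a marker of inflammatory monocytes, had a course like that of Ccl6 and Ccl9. Its level was 8.61, 9.95 and 10.1 CPM in naïve libraries, 17.8, 13.3 and 12.3 CPM at IM3h, 125, 124, 122 and 119 CPM at IM24h and 64.6, 75.7, 71.5 and 63.5 CPM at IM72h. The 4 groups did not overlap on this scale, and the spread within IM24h was the smallest of any member relative to its mean (122 ± 2.61 CPM, SD, n = 4). From IM3h to IM24h Ccr2 changed by 3.08 ± 0.18 (adjusted p = 1.23e-05, edgeR), beside 0.25 for Ccl2, and from IM24h to IM72h it fell by 0.86 on the log2 scale (adjusted p = 0.00036). Its change of 0.71 ± 0.21 at IM3h (adjusted p = 0.0259) did not hold without naïve library 1 or 3 or IM3h library 1 or 2, at 0.54 to 0.73, or under the same 3 other scalings, at 0.46, 0.59 and 0.31.

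Of the eotaxins, Ccl24 rose late and Ccl11 early. Ccl24 stood at 0.994, 0.191 and 0.896 CPM in naïve libraries and at 1.38, 1.14 and 1.59 CPM at IM3h, below the filter on low counts (exact two-sided permutation test p = 0.1, the smallest that 3 against 3 libraries allow). It reached 34.8, 11.1, 28.2 and 7.63 CPM at IM24h and 6.06, 3.31, 3.66 and 5.77 CPM at IM72h, with log2 fold changes against naïve of 4.76 ± 0.68 and 2.62 ± 0.43 (adjusted p = 0.000776 and 0.000386, edgeR). Ccl11 went from 0.766 to 1.66 CPM in naïve mice to 4.19 to 9.6 CPM at IM3h, a change of 2.499 ± 0.43 (adjusted p = 0.00161). At IM24h it was at 1.69, 0, 3.01 and 4.07 CPM, which overlapped with naïve libraries (0.81 ± 1.05, adjusted p = 0.6), and at IM72h at 0.225 to 1.43 CPM (-0.83 ± 0.55, adjusted p = 0.22).

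Ccl8, a ligand of CCR8, was highest at IM72h. Its level was 4.64, 4.98 and 9.64 CPM in naïve libraries and 3.63, 4.29 and 4.04 CPM at IM3h, and at IM24h 4.23, 0.545, 2.12 and 27 CPM. At IM72h, when the other ligands were at or below their IM24h level on average, it stood at 48, 43.1, 41.9 and 50.9 CPM. Its IM72h libraries lay above all other libraries of total ME RNA. The change against naïve was -0.58 ± 0.34 at IM3h (adjusted p = 0.22), 0.43 ± 0.98 at IM24h (adjusted p = 0.778) and 2.81 ± 0.22 at IM72h (adjusted p = 3.07e-06, edgeR). The value at IM24h rests on library 4, without which it was -1.46. Between IM24h and IM72h Ccl8 changed by 2.43 ± 0.79 (adjusted p = 0.0314), a call that was lost on leaving out IM24h library 1 or 3 or any 1 IM72h library, at 2.09 to 2.48. Over all fits without 1 library the change ranged from 2.05 to 4.29.

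**Figure D1:**
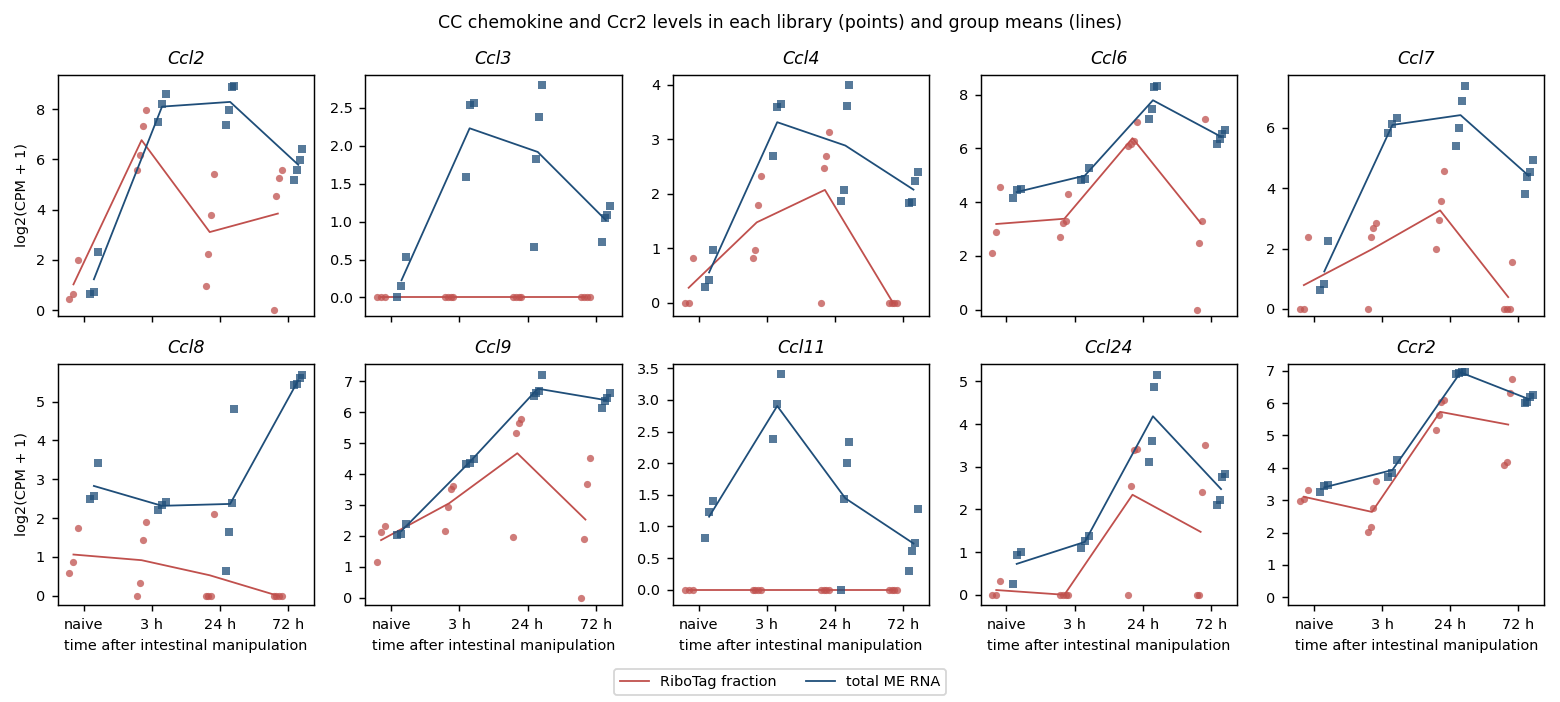
Level of each gene in every library, as log2(CPM + 1), against time after intestinal manipulation, for the RiboTag fraction (circles) and total ME RNA (squares), with lines through group means. In total ME RNA Ccl2 stands at 180 to 386 CPM at IM3h and 35.1 to 83.8 CPM at IM72h, Ccr2 at 119 to 125 CPM at IM24h and 63.5 to 75.7 CPM at IM72h, and Ccl8 at 41.9 to 50.9 CPM at IM72h. Genes drawn at 0 in the RiboTag fraction include Ccl3 and Ccl11, which its tables do not list.

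Counted over the group, 8 of 9 tested genes had a higher level at IM3h than in naïve mice, 8 of 10 at IM24h and 9 of 10 at IM72h (adjusted p under 0.05). Among all tested genes, 19.3%, 15.6% and 29.3% were higher in these comparisons. A gene enters the test only where its counts in 1 of the groups pass a filter, which Ccl24 did not at IM3h. Libraries lay above all naïve libraries in 8 and below them in 1 of 9 tested members at IM3h (Ccl8), and above in 8 of 10 and 9 of 10 later, where 49.1%, 40.7% and 58.5% of all genes did not overlap in either direction. The median log2 fold change was 2.60, 4.03 and 2.83 over the tested members, beside 0.00, 0.02 and 0.02 over all genes. When libraries were scaled by Actb, Hsp90ab1 and Rplp1, 6 members were higher and 1, Ccl8, lower at IM3h (-0.99, adjusted p = 0.0413, edgeR). From IM3h to IM24h 4 of 10 members were higher (Ccl6, Ccl9, Ccl24 and Ccr2), where 14.2% of all genes were higher. From IM24h to IM72h 6 members were lower and 1 higher, where 19.9% of all genes were lower and 18.6% higher. One of the 6, Ccl3 (-1.69, adjusted p = 0.0488, edgeR), lost its call in 6 of 8 fits that left out 1 library, those of IM24h libraries 2 and 3 and of each IM72h library, at -1.80 to -1.26. These comparisons share libraries, and naïve libraries serve all 3 time points. In bulk RNA, fewer cells of a type and less RNA per cell cannot be told apart.

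**Figure D2:**
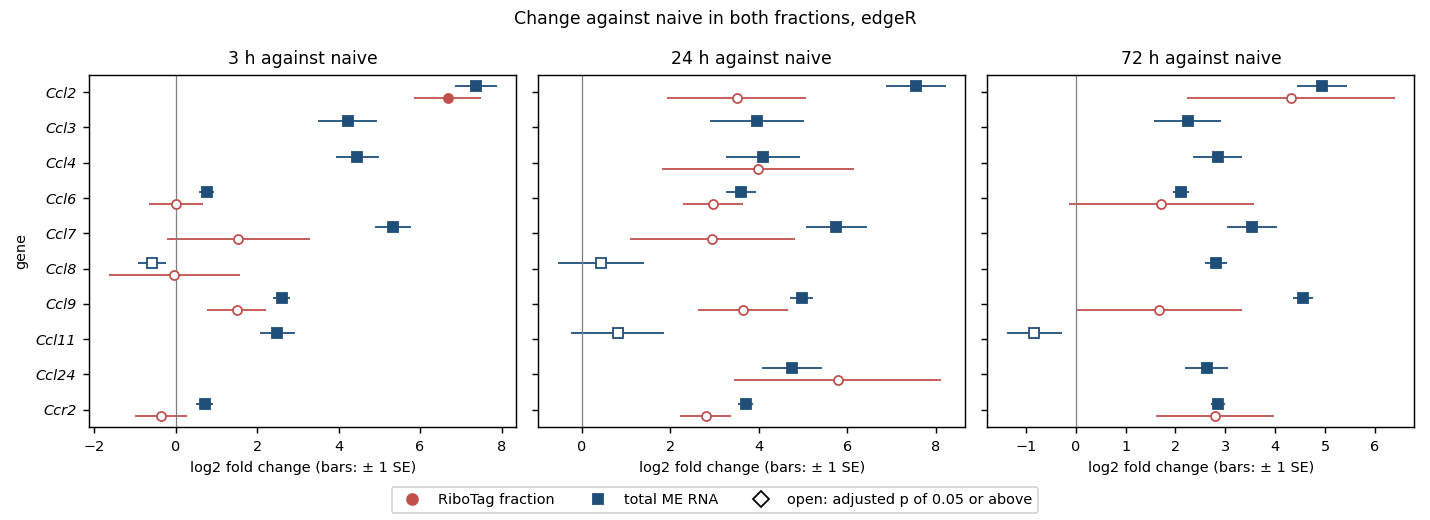
Log2 fold change against naïve (edgeR, bars ± 1 SE) at 3 h, 24 h and 72 h for each gene, in total ME RNA (squares) and the RiboTag fraction (circles), with filled symbols for an adjusted p under 0.05. Total ME RNA has 8, 8 and 9 filled symbols, and the RiboTag fraction has 1, that of Ccl2 at 3 h. A missing symbol means that the gene was not listed or did not pass the filter on low counts.

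In the RiboTag fraction, 8 of the 10 genes were listed, and Ccl3 and Ccl11 were not, which allows each of their transcripts fewer than 10 counts over the libraries of a table. At IM3h Ccl2 alone was higher than in naïve mice, 1 of 6 tested genes, where 8.86% of all genes were higher. Its level was 0.554, 0.366 and 2.98 CPM in naïve libraries and 249, 160, 71.1 and 47.4 CPM at IM3h, from 447 to 2914 counts. The lowest IM3h library lay far above the highest naïve one, with a log2 fold change of 6.68 ± 0.82 (adjusted p = 0.000372, edgeR) that was called without any 1 of the 7 libraries (6.19 to 8.17). In the other tested members the groups overlapped. Ccl7 stood at 4.16, 0 and 0 CPM in naïve libraries and at 4.18, 5.42, 6.22 and 0 CPM at IM3h (1.54 ± 1.76, adjusted p = 0.648), and without naïve library 1, which held 30 counts, its change was 8.19 (range without 1 library 0.97 to 8.19, lowest adjusted p = 0.11). Ccl9 changed by 1.49 ± 0.73 (adjusted p = 0.216), Ccl6 by 0.01 ± 0.66 (adjusted p = 0.996) and Ccr2 by -0.36 ± 0.63 (adjusted p = 0.777).

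At IM24h in the RiboTag fraction 0 of 7 tested members passed an adjusted p under 0.05 in edgeR, where 0.366% of all genes were higher. By an unadjusted p under 0.05 with a change of over 2-fold, a threshold the study used, 5 were higher, Ccl2, Ccl6, Ccl9, Ccl24 and Ccr2, where 6.62% of all genes were higher. DESeq2 called 3 members after adjustment (Ccl6, Ccl9 and Ccr2), and edgeR with no filter on low counts called 2 (Ccl6 and Ccr2), where 5.7% and 1.05% of all genes were called in either direction under these settings. Beside these values stand the glia marker sums of IM24h given above, and their part in the result was not tested. Ccl6 was at 22.6, 3.29 and 6.49 CPM in naïve libraries and at 125, 71.2, 75.7 and 67.8 CPM at IM24h, and Ccr2 at 9.01, 6.83 and 7.13 CPM and then at 64.2, 34.7, 49 and 66.7 CPM. In both genes every IM24h library lay above every naïve library. The log2 fold changes were 2.96 ± 0.67 for Ccl6 (adjusted p = 0.0695) and 2.79 ± 0.58 for Ccr2 (adjusted p = 0.0517, edgeR), and Ccr2 was called without IM24h library 1 or 3. Ccl9 went from 3.33, 1.22 and 4.02 CPM to 39, 48.9, 2.91 and 53.5 CPM (3.64 ± 1.02, adjusted p = 0.132), with IM24h library 3 among the naïve values, and was called without it.

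Between IM3h and IM24h the fitted change was negative for Ccl2 and positive for Ccl6 and Ccr2 in RiboTag libraries. At IM24h Ccl2 was at 3.74, 12.8, 0.971 and 41.9 CPM, and the groups of IM3h and IM24h did not overlap (-3.07 ± 0.87, adjusted p = 0.0865, edgeR). Over the same step Ccl6 changed by 3.08 ± 0.50 (adjusted p = 0.00958) and Ccr2 by 3.25 ± 0.59 (adjusted p = 0.0185), 2 of 6 tested members higher where 0.965% of all genes were. The call of Ccl6 was lost without IM3h library 1 or 3, at 2.97 and 2.997, and that of Ccr2 without IM3h library 1, 2 or 4 or IM24h library 4, at 3.02 to 3.22. DESeq2 called 4 members in this step, 3 higher (Ccl6, Ccl9 and Ccr2) and Ccl2 lower, where it called 8.36% of all genes in either direction, and edgeR called Ccl2 without IM24h library 4.

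At IM72h the RiboTag libraries differed widely from each other. Ccl2 was at 46.5, 22.6, 0 and 37 CPM, Ccr2 at 78.5, 107, 16 and 17.1 CPM and Ccl6 at 4.65, 136, 0 and 8.92 CPM. Library 3 held 4 counts of all 9 ligands together, and library 2 held nearly all Ccl6 counts of the group. No member of 4 tested passed an adjusted p under 0.05 against naïve in edgeR, where 1.05% of all genes were higher. By an unadjusted p under 0.05, 1 of 4 did (Ccr2, 2.79 ± 1.19, adjusted p = 0.187, edgeR), as did 3063 of 13572 genes in either direction. DESeq2 called Ccl2 and Ccr2, beside 16.8% of all genes in either direction. From IM24h to IM72h 0 of 4 tested members and 0% of all genes passed, with 0 members in DESeq2, which called 1.34% of all genes. At an unadjusted p under 0.05 stood 0 members and 590 of 9344 genes. The groups without overlap against naïve numbered 1, 2 and 1 of the tested members at the 3 time points, all higher, where 29.7%, 21.1% and 30.6% of all genes did not overlap in either direction.

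The fractions were compared directly at each time, and every tested member had its higher fitted level in total ME RNA. For members that entered the test only through total ME RNA, named below, this direction was fixed or favoured beforehand and is no result. In naïve mice 1 of 4 tested members was lower in RiboTag libraries (Ccl8, -2.29 ± 0.73, adjusted p = 0.0477, edgeR), where 12.8% of all genes were lower, and the call was lost on leaving out any 1 library except RiboTag library 3, at -2.52 to -1.92. With 6, 4 and 18 counts in the RiboTag libraries, Ccl8 passed the filter through total ME RNA, where it was higher, so that this call is no independent result. At IM3h 6 of 9 were lower, where 12.3% of all genes were. Ccl2 was among the other 3 (-1.10 ± 0.51, adjusted p = 0.147), while Ccl7 was lower by 4.09 on the log2 scale (SE 0.77, adjusted p = 0.0049). The Ccl2 groups overlapped and the Ccl7 groups did not. Of the 6, Ccl3 and Ccl11 are not listed for RiboTag libraries, were set to 0 and entered the test only through total ME RNA, so that they had to be lower and their calls are no result. That leaves 4 of 7, among them Ccl4 with 9 to 38 counts in RiboTag libraries, below the filter in their comparison with naïve. Of these Ccl4, Ccl6 and Ccl9 lost their calls in 6, 5 and 4 of 7 such fits, at -2.46 to -1.28, each ME library among them.

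At IM24h, where both fractions came from the same line, 4 of 8 tested members were lower in RiboTag libraries and 6.48% of all genes were. Ccl2 differed by -4.46 ± 0.88 and Ccl7 by -3.10 ± 0.64 (adjusted p = 0.00895 and 0.0108, edgeR), both without overlap and without a lost call on leaving out any 1 library. Ccl6 (-1.43 ± 0.36) and Ccr2 (-1.15 ± 0.30) were lower as well (adjusted p = 0.0241 and 0.0274), but each lost its call in 4 of 8 fits without 1 library, at -1.40 to -1.12. These 4 were RiboTag libraries 2 and 4 and ME libraries 3 and 4 for Ccl6, and each ME library for Ccr2. At IM72h 3 of 8 were lower, Ccl4 (not listed and set to 0 in RiboTag libraries), Ccl7 and Ccl8, where 26.8% of all genes were and the median of all genes was -0.70. Ccl4 and Ccl8, at 0 in every RiboTag library of this time, and Ccl7, with 4 counts in 1 library and 0 in the others, likewise entered only through total ME RNA, so that these 3 calls are no result. Ccl8 was listed at 0 counts in each of the 4 RiboTag libraries, beside 630 to 856 counts in total ME RNA. Against a floor of 3 counts per library its level was at least 22.2-fold higher in total ME RNA. This bound covers counting error only and, like the call of Ccl8, is no independent result. Ccl7 lost its call without any 1 ME library (-5.27 to -4.90).

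The interaction of fraction and time asks whether a change against naïve differed between the fractions. Of 8 tested members at IM72h, Ccl8 alone passed (adjusted p = 0.00156, edgeR), where 20.7% of all genes were lower in this test and the median of all genes was -1.01. Ccl8 was below the filter in RiboTag libraries, with 4 to 18 counts in naïve libraries and 0 at IM72h, and entered through total ME RNA, where it was high, so that its call is no independent result. At IM3h 0 of 7 passed, where 1.64% of all genes did, and 0 in DESeq2, which called 4.59% of all genes. Before adjustment 1 was below 0.05 (Ccl7, -3.72 ± 1.59, adjusted p = 0.288, edgeR), as were 2582 of 17729 genes. Without naïve RiboTag library 1 the value of Ccl7 was 2.79. At IM24h 0 of 8 passed, where 0.521% of all genes did, and 1 in DESeq2, which called 4.79% of all genes. Before adjustment 1 was below 0.05 (Ccl2, -4.05 ± 1.37, adjusted p = 0.195, edgeR), as were 2365 of 17844 genes. The change of Ccl2 at IM24h was 3.49 ± 1.58 in RiboTag libraries (2.14 to 4.90 without 1 library) beside 7.55 ± 0.68 in total ME RNA. Ccl2 passed the interaction test without RiboTag IM24h library 4.

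The share of each ligand within a library does not depend on scaling. In naïve mice Ccl6 held the largest share in every library of both fractions, 38.5% to 71.8% of the ligands' counts in RiboTag libraries and 41.3% to 64.9% in total ME RNA. At IM3h Ccl2 held 91.0%, 91.2%, 70.7% and 59.4% in the RiboTag libraries and 65.3%, 74.1% and 55.8% in total ME RNA. At IM24h Ccl2 held 2.04%, 7.93%, 1.11% and 20.9% in RiboTag libraries, in which Ccl6 was again first with 33.8% to 86.7%, and 40.3%, 52.9%, 42.8% and 24.5% in total ME RNA. Ccl6 held 14.9% to 48.2% there and was first in library 4. At IM72h Ccl2 held 63.4%, 12.3%, 0% and 76.1% in RiboTag libraries, the third of which rests on 4 counts, and 13.5% to 24.6% in total ME RNA. The number of Ccl2 counts per Ccl7 count was 2.62 to 6.96 in total ME RNA at IM3h and 11.4 to 59.5 in the 3 RiboTag libraries with a Ccl7 count, while at IM24h it was 2.91 to 4.06 and 0.333 to 1.83. This pair was chosen after its values were seen and is given with no test.

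**Figure D3:**
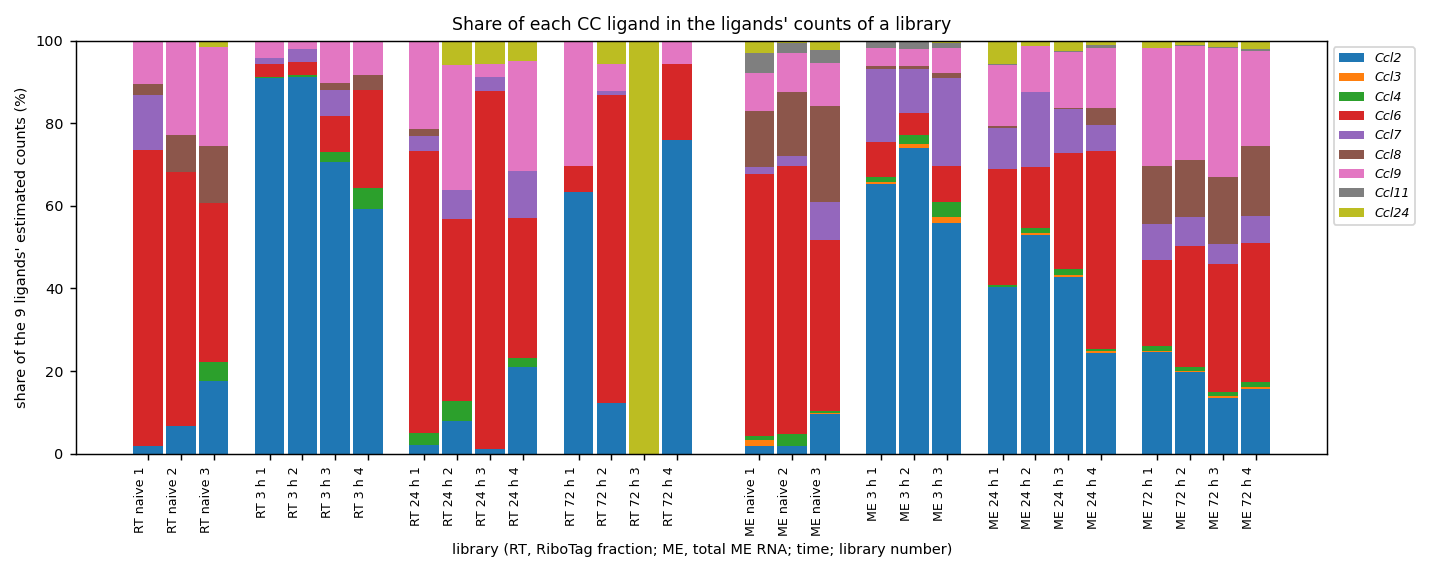
Share of each of the 9 ligands in the ligands' estimated counts (%), 1 bar per library, for the RiboTag fraction (RT) and total ME RNA (ME). Ccl2 fills 59.4% to 91.2% of RiboTag bars at 3 h and 1.11% to 20.9% at 24 h, and RiboTag library 3 at 72 h rests on 4 counts.

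Over the 14 libraries of total ME RNA the members fell into groups by their courses. These are correlations of log2 levels over libraries that share the time course, given as a description. Ccl2 and Ccl7 had Pearson r = 0.99, and each was the other's closest match among 17919 genes, followed by Ifi205 for both. Ccl3 and Ccl4 joined them at 0.83 to 0.89. Ccr2 had r = 0.95 with Ccl6, 0.94 with Ccl9 and 0.90 with Ccl24, but 0.60 with its ligand genes Ccl2 and Ccl7. Ccl8 stayed between -0.29 and 0.23 with every other member, and Ccl11 between -0.36 and 0.33.

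Genes among the 3 closest to each member are named in the same way. Closest to Ccl6 were Ctss, which encodes the lysosomal protease cathepsin S (r = 0.993), Myof (0.968) and Gm5150 (0.967). Those of Ccl9 included Sla (0.991) and Fgr, a Src family kinase (0.987). Ccr2 was closest to Gpr65 (0.981), Apbb1ip (0.981) and Tlr1, a toll-like receptor (0.979), and Ccl24 to Arl5c (0.978), Rps10-ps1 (0.969) and Tmem167 (0.964). Those of Ccl3 were Zc3h12a, Ercc8 and Rai14 (0.945 to 0.920), of Ccl4 Strap, Mmp8 and Ccdc71l (0.955 to 0.939), of Ccl8 Echdc2, Ssc5d and Cox19 (0.948 to 0.943) and those of Ccl11 included Gm42699 (0.947) and Chac1 (0.941). For Ccl2 the third gene was Thoc6 (0.977) and for Ccl7 Steap1 (0.963).

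**Figure D4:**
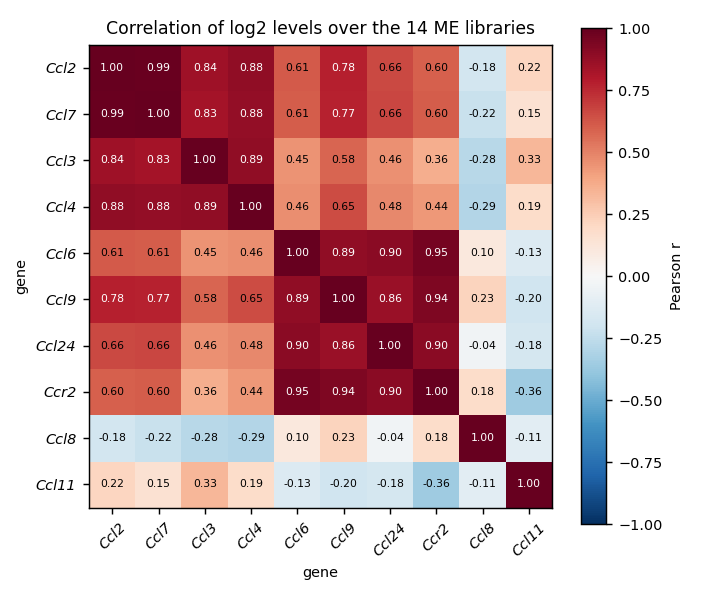
Pearson correlation of log2 levels between members over the 14 libraries of total ME RNA, with genes in both rows and columns ordered by group. Ccl2 and Ccl7 stand at 0.99, Ccr2 and Ccl6 at 0.95, and Ccl8 and Ccl11 at 0.33 or less with every other gene.

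Markers of myeloid cells changed over the same time course. The summed level of 10 genes of monocytes and macrophages in total ME RNA was 186 to 209.6 CPM in naïve mice, 168 to 187 at IM3h, 474 to 967 at IM24h and 944 to 1139 at IM72h. Of the list, 3 of 9 tested genes were higher and 2 lower at IM3h, 7 of 10 higher at IM24h and 10 of 10 at IM72h. Among all tested genes 19.3%, 15.6% and 29.3% were higher at the 3 times and 13.4%, 13.4% and 28.3% lower, for this and the following lists. The median sum was highest at IM72h, a time at which Ccl6, Ccl24 and Ccr2 were lower than at IM24h. Neutrophil markers summed to 0.784 to 0.957 CPM in naïve mice and 21.8 to 28.9 CPM at IM3h, 41 to 193 CPM at IM24h and 17.7 to 51.4 CPM at IM72h, with 3 of 3, 5 of 5 and 5 of 5 tested genes higher, S100a8 and S100a9 each time. Eosinophil markers, of interest beside the eotaxins, summed to at most 1.93 CPM in any library of total ME RNA, with 1 gene tested, at IM72h, and higher there. T cell markers were higher in 3 of 5 genes at IM72h, and endothelial markers in 1, 2 and 3 of 4 genes at the 3 times. Fibroblast markers were lower in 5 of 5 genes at IM3h, 1 higher and 1 lower at IM24h and 2 higher at IM72h, with sums of 2311 to 2458 CPM in naïve libraries, 981 to 1135, 1516 to 3509 and 3613 to 4467 CPM thereafter. Mesothelial markers were lower in 4, 1 and 3 of 4 genes, smooth muscle markers were lower in 1, 3 and 2 of 4 genes, markers of interstitial cells of Cajal in 2, 1 and 3 of 3, and neuronal markers in 0, 1 and 2 of 5, with 1 higher at IM72h. Of 4 epithelial markers 1 was higher at IM3h, 2 lower at IM24h and 1 higher at IM72h, and of 6 glia markers 2, 1 and 3 were higher and 2, 1 and 1 lower. The part of changes in cell makeup in these results was not tested.

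RiboTag libraries also held these markers. Monocyte and macrophage markers summed to 97.5 to 211 CPM in naïve RiboTag libraries, 74.4 to 161 at IM3h, 171 to 469 at IM24h and 436 to 568 at IM72h. At IM3h, when Ccl2 was 47.4 to 249 CPM, the summed level of these markers overlapped with that of naïve libraries and 1 of 9 tested genes, Itgam, was higher. At IM24h, when Ccl6, Ccl9 and Ccr2 stood above or mostly above naïve libraries, Itgam was again the gene called among 8 tested, and at IM72h Itgam and C1qa of 7 tested. Among all genes 8.86%, 0.366% and 1.05% were higher at the 3 times. Neutrophil markers were at 1.34 to 3.47, 3.93 to 12.2, 8.21 to 53.9 and 11.7 to 77.4 CPM in RiboTag libraries at the 4 times. Each sum after manipulation lay above all naïve sums, but only 1, 2 and 1 of 7 genes could be tested against naïve, and 0 were called. Markers of T cells, eosinophils, epithelium, endothelium, mesothelium, fibroblasts, smooth muscle, interstitial cells of Cajal and neurons gave 0 higher calls in RiboTag libraries against naïve. For T cells only 0, 0 and 1 of 5 genes were tested at the 3 times, and for eosinophils 0 of 4 at each, so that these lists show no absence. Lower at IM3h were 4 of 5 fibroblast, 3 of 4 mesothelial, 2 of 4 smooth muscle and 1 of 3 Cajal cell markers, where 4.44% of all genes were lower. Lower at IM24h were 2 of 4 smooth muscle markers, where 0.131% of all genes were. Lower at IM72h were 1 of 4 mesothelial, 2 of 3 endothelial and 1 of 4 epithelial markers, where 15.1% of all genes were. Of the 6 glia markers 1 was higher and 2 lower at IM3h, 0 were called at IM24h and 1 was lower at IM72h. The part of RNA from myeloid cells in the RiboTag values of the members was not tested.

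**Figure D5:**
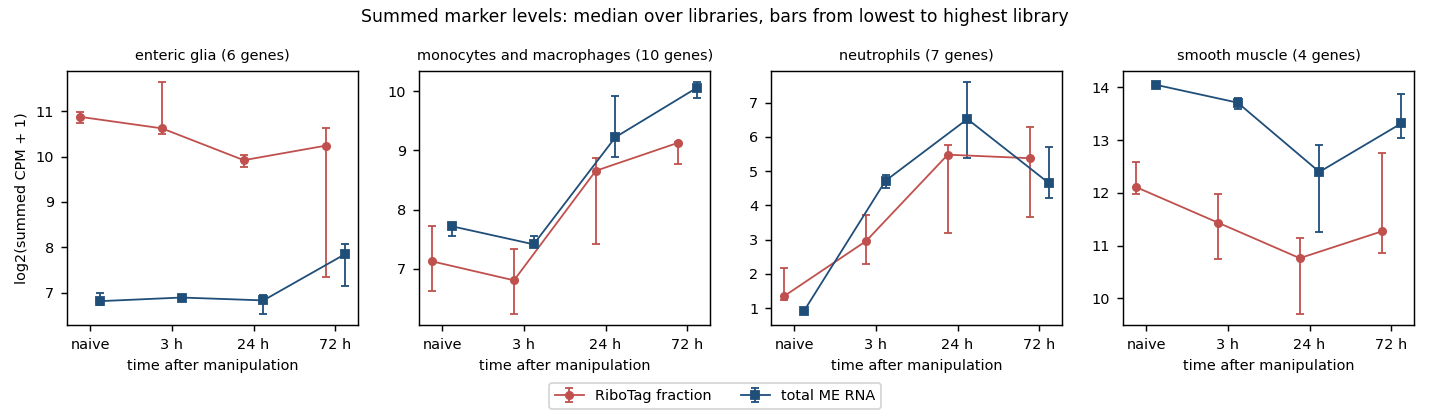
Summed level of marker genes, as log2(summed CPM + 1), against time after manipulation for enteric glia, monocytes and macrophages, neutrophils and smooth muscle, with the median over libraries and bars from the lowest to the highest library. Monocyte and macrophage markers reach 944 to 1139 CPM in total ME RNA and 436 to 568 CPM in RiboTag libraries at IM72h.

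Of the other genes of the CC family, 12 ligands and 13 receptors were followed as background. In total ME RNA 2 of 6, 2 of 6 and 4 of 6 tested ligands were higher at IM3h, IM24h and IM72h, and 3 of 6, 3 of 7 and 2 of 6 tested receptors, where 19.3%, 15.6% and 29.3% of all genes were. Lower were 0, 1 and 0 of these ligands and 1, 0 and 2 of the receptors, where 13.4%, 13.4% and 28.3% of all genes were. Ccl12, a further CCR2 ligand of the mouse, was at 2.49 to 3.59 CPM in naïve libraries and 12.9 to 16.7, 11.7 to 29.7 and 6.12 to 13.5 CPM thereafter, above naïve at each time (2.46 ± 0.24, 2.78 ± 0.41 and 1.79 ± 0.29, adjusted p = 4.74e-05, 0.000963 and 0.000393, edgeR). Ccl17, a CCR4 ligand, was at 0 to 0.112 CPM in naïve libraries and 2.53 to 4.62, 1.22 to 9.04 and 1.35 to 2.98 CPM thereafter. Ccr1, a receptor of CCL3 and its relatives, was higher at all 3 times, with a peak at IM24h (17.9 to 26.4 CPM against 0 to 1.33 in naïve mice). Ccr7 was higher at IM24h and Ccl25 and Ccl21a at IM72h. The decoy receptor gene Ackr4, which binds CCL19, CCL21 and CCL25, was lower at IM3h (11.1 to 15 CPM against 31 to 55.8) and IM72h, Ccrl2 higher at IM3h and lower at IM72h, and Ccl27a lower at IM24h. Ccl21a and Ccl27a have near-identical copies in the genome, so that their counts are uncertain.

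In RiboTag libraries Ccl25 was lower at IM72h (0 to 0.49 CPM against 8.17 to 18.9 CPM in naïve libraries). Ccl27a was lower at IM3h and IM72h. Of the tested ligands 1 of 5 was lower at IM3h, where 4.44% of all genes were, and 2 of 3 at IM72h, where 15.1% were. At IM24h 0 of 3 tested ligands and 0 of 6 tested receptors passed in edgeR, where 0.366% of all genes were higher and 0.131% lower. Ccl1, Ccl26 and Ccr8 are not listed for total ME RNA.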

How the data were processed

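RNA of the small bowel ME was sequenced by the authors as 3′ end libraries, with single-end reads of 50 bp trimmed with cutadapt, aligned with STAR 2.5.3 to mm10 and quantified against Ensembl 99 in Partek Flow. The deposited values are estimated counts made by the authors without scaling. RiboTag tables hold transcripts, which were summed by gene symbol, and the gene table was used for total ME RNA. Features listed have at least 10 counts over a table's libraries, and 0 lines lacked a group. The authors' 4 comparison tables hold p-values and fold changes and were not used.

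Counts were rounded and fitted with edgeR 4.0.16 (R 4.3.3, limma 3.58.1, quasi-likelihood test, TMM, filterByExpr) for the groups compared, with Benjamini-Hochberg adjustment over all genes tested and a threshold of 0.05. Members below the filter got an exact two-sided permutation test. The script was tested on simulated data. Alternatives were DESeq2 1.42.0, median-ratio size factors, library totals, no scaling, scaling by Actb, Hsp90ab1 and Rplp1, no filter, and leaving out each library. Promoters come from RefSeq. The members and lists were chosen with earlier results of these data known. Named were the 10 members, other CC genes with an adjusted p under 0.05 against naïve or without a count, and the 3 genes most like each member, except some genes that are not reported here.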

Additional observations from a re-analysis of the deposited data

Results flagged for a closer look

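Among 41 gene groups of 4 libraries, 5 held a library that stood apart from the rest of its group by Dixon's test at 95%. Chance gives about 1 in 20 for normally distributed values, a rate that levels near 0 need not follow. Ccl8 in total ME RNA at IM24h was 26.96 CPM in library 4, while the nearest of the other libraries was at 4.232 CPM and the lowest at 0.5454 CPM. Ccl6 in RiboTag libraries was 125.3 CPM in IM24h library 1, with the nearest at 75.73 CPM and the lowest at 67.78 CPM. At IM72h Ccl6 was 136.3 CPM in RiboTag library 2, with the nearest at 8.917 CPM and the lowest at 0, and Ccl7 was 1.962 CPM in the same library and 0 in the others. Ccl8 was 3.312 CPM in RiboTag IM24h library 1 and 0 in the others. With all other libraries at 0, as in these groups of Ccl7 and Ccl8, any count flags its library, so that the rate does not apply. The change of Ccl8 from naïve mice to IM72h passed the test of a difference between the fractions (adjusted p = 0.001564, interaction term in edgeR), with a rise in total ME RNA and 0 counts in all 4 RiboTag libraries of IM72h. The RiboTag side held 4 to 18 counts in naïve libraries and was below the filter, so that Ccl8 entered this test through total ME RNA, and 20.7% of all genes were lower in it, with a median of -1.01.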

How the results depend on the processing

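No paired analysis was possible because the library names carry no replicate number of the labels. The methods take input RNA from the lysate used for precipitation, so that both fractions at IM24h and IM72h may come from the same mice. Tests between the fractions and of the interaction treated all libraries as independent. Under other settings the count of members called changed in the following comparisons, among others. Against naïve, RiboTag IM24h went from 0 to 2 with no filter on low counts and 3 in DESeq2, and RiboTag IM72h from 0 to 2 in DESeq2. RiboTag IM24h against IM3h went from 2 to 4 in DESeq2. In total ME RNA against naïve, IM3h went from 8 to 6 with library totals, 6 without scaling and 7 (6 higher, 1 lower) with the reference genes Actb, Hsp90ab1 and Rplp1, which gave 7 in place of 8 at IM24h and 8 in place of 9 at IM72h. Between the fractions, naïve mice went from 1 to 0 when scaled by Actb, Hsp90ab1 and Rplp1 and to 0 with no filter, and IM24h from 4 to 2 with that scaling. The interaction went from 0 to 1 at IM24h in DESeq2, and from 1 at IM72h to 4 with library totals, 3 with the reference genes and 2 in DESeq2. Without 1 library, counts ranged from 0 to 2 (RiboTag IM24h against naïve), 0 to 3 (RiboTag IM24h against IM3h), 6 to 8, 7 to 8 and 8 to 9 (total ME RNA against naïve), 5 to 8 (total ME RNA IM72h against IM24h), 0 to 1, 3 to 6, 2 to 6 and 2 to 5 (fractions in naïve mice and at IM3h, IM24h and IM72h), and 0 to 1 and 1 to 3 (interaction at IM24h and IM72h). The cause was not tested.

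Values that changed sign were all of results that did not pass the test. Against naïve, Ccl6 in RiboTag IM3h was -0.18 with library totals and -0.38 with the reference genes, Ccl8 in RiboTag IM3h 0.17 without scaling, Ccl6 and Ccl9 in RiboTag IM72h -0.093 and -0.29 without scaling, and Ccl11 in total ME RNA at IM72h 0.12 without scaling. With the reference genes the change of Ccl9, RiboTag IM72h against naive, was -0.057. Without 1 library the ranges were -0.44 to 1.11 (Ccl6, RiboTag IM3h), -0.40 to 0.83 (Ccl8, RiboTag IM3h), -1.35 to 2.82 (Ccl6, RiboTag IM72h) and -1.46 to 0.83 (Ccl8, total ME RNA IM24h). They were -0.41 to 0.35 for Ccr2 from IM24h to IM72h in RiboTag libraries, and from IM3h to IM24h in total ME RNA -0.0099 to 0.52 (Ccl2), -0.68 to 0.11 (Ccl3), -0.71 to 0.057 (Ccl4) and -0.79 to 1.47 (Ccl8). For Ccl9 between the fractions of naïve mice the range was -0.56 to 0.12, and for the interaction of Ccl7 it was -5.17 to 2.79 at IM3h and -10.24 to 1.41 at IM72h. Over single genes and left-out libraries, 726 values kept direction and call, 58 lost and 21 gained a call, and 20 changed sign. RiboTag libraries at IM72h held the fewest counts outside AY036118, 663808 to 1619377.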
